A study of Mus musculus with 3 samples.

Results

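The data described here concern 10 genes of the bone morphogenetic protein (Bmp) pathway in the embryonic mouse kidney, namely the ligands Bmp2, Bmp4, Bmp5, Bmp6 and Bmp7, the type I receptors Bmpr1a and Bmpr1b, and the target genes Id1, Id2 and Id3. The members were chosen by name, as all probes on the array whose gene name is exactly 1 of these 10, which leaves out the kinase gene Bmp2k. This gave 17 probes with 44 spots, of 41174 probes with 43379 spots and 27745 different gene names on the whole array. Kidney rudiments of stage E12.5 were dissected from Fgfrl1-/- mice (C57BL/6) and from wildtype littermates (C57BL/6), and the RNA of 6 to 9 rudiments was combined in each pool. The comparison asks how the absence of Fgfrl1, a receptor that binds Fgf ligands but has no kinase domain, changes mRNA levels in the kidney at that age. The deletion is present in every cell of the embryo, and a pool holds all cell types of the rudiment. In each of 3 arrays, 1 Fgfrl1-/- pool labelled with Cy3 was hybridized together with 1 wildtype pool labelled with Cy5, and with 0 dye-swapped arrays the dye and the genotype cannot be told apart.

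Bmps are secreted dimers that bind pairs of type I and type II receptor kinases. The receptors phosphorylate Smad1, Smad5 and Smad9, which enter the nucleus with Smad4 and bind DNA at short motifs in front of their target genes. The Id genes are among the most direct of these targets in many cells, and Id proteins hold back basic helix-loop-helix transcription factors by capturing their E protein partners. In the kidney, Bmp7 is known for keeping the nephron progenitors alive, Bmp4 is made by the mesenchyme around the ureter and the Wolffian duct, and Bmp2 is made in early nephrons.

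Arrays 2 and 3 shared a slide, and array 1 was on a separate one. The probe for Fgfrl1 itself gave log2 ratios of Fgfrl1-/- over wildtype of -1.21, -1.51 and -1.83 on arrays 1, 2 and 3, with a mean of -1.52 (adjusted p = 0.0332, limma), lower in each pool labelled Fgfrl1-/-. Whether this probe lies in the deleted stretch was not examined. Among markers, the kidney genes Wt1 and Six2 were well above background in all pools. Between 57.1% and 80.2% of the probes were well above background in a pool, and 0 spots were saturated. Pearson's r between the ratios of 2 arrays, taken across probes (not independent of each other), was 0.71 for the pair on the shared slide, but 0.11 and 0.22 for array 1 with array 2 and with array 3. Array 1 therefore stood apart from the arrays of the other slide, and each value is given for every array. When array 2 or array 3 was left out of the fit, 0 of all probes passed the test, so that every call below needs both arrays of that slide. The small number of arrays limits the precision of all values.

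Each probe is a DNA strand of 60 bases. The probes of Bmp2 and Bmp4 are shown because one of the genes was lower in the Fgfrl1-/- pools and the other was not, both with 10 spots per array. Those of Id2 and Id3 are shown as the second measurement of Id2 and the single measurement of Id3. For Id1, the first 30 bases of both probes are given, since these probes are offset by 10 bases and share 50 bases. Capitals mark the bases that both Id1 probes hold, which are the last 20 printed of probe 1 and all 30 printed of probe 2. All are written 5′ to 3′ as in the array's design.
Bmp2: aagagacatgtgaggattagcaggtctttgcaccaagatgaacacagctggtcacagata
Bmp4: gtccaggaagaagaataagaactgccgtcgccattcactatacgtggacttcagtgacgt
Id2 probe 2: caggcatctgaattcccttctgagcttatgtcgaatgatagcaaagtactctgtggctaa
Id3: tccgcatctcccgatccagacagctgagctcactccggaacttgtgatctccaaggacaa
Id1 probe 1: gaggaaatatTTTGTATTGTATATTACAAT
Id1 probe 2: TTTGTATTGTATATTACAATGATCACTGGC
On the mouse build mm8 that the array's design uses, the Bmp2 probe lies at chr2:133252686-133252745 on the plus strand and the Bmp4 probe at chr14:45306004-45306063 on the minus strand. The Id2 probe shown spans chr12:25684398-25684745 on the minus strand, which is 348 bases for a probe of 60, and the Id3 probe spans chr4:135416236-135416410 on the plus strand, which is 175 bases. A span longer than the probe means that its bases are split over 2 or more blocks of the genome. The 2 Id1 probes start at chr2:152428741-152428800 and chr2:152428751-152428810 on the plus strand. The positions were not set against an annotation of mm8, so that exons and UTRs are not named. The GC content of the 17 member probes ranged from 25% to 55% with a median of 38.3%, against a median of 40.0% over all probes, and the 2 Id1 probes had the lowest values with 25% and 26.7%.

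Bmp2 was the member with the lowest mean ratio under the processing reported here. Its log2 signal in the wildtype pools was 7.36, 7.26 and 7.26 on arrays 1, 2 and 3, and in the Fgfrl1-/- pools it was 6.53, 6.45 and 6.26. The Fgfrl1-/- pool was lower on every array, as it was for 19.2% of all probes. Signals were normalized within arrays and not scaled between them, so levels are compared within an array. The log2 ratios were -0.83, -0.81 and -1.0, with a mean of -0.88 ± 0.10 (SD, n = 3), which is 1.84-fold lower or 54.4% of the wildtype level (95% interval of the log2 ratio -1.07 to -0.69, adjusted p = 0.0336, limma). Of the 17 member probes, Bmp2 alone passed the test as lower and 0 passed as higher. Over all probes, 0.398% passed as lower, 0.289% as higher and 0.687% in either direction. With 17 probes, a single call is the smallest count above 0 that can occur, and no more than that is read from it.

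The Bmp2 signal was low, and the size of its difference changed with the background treatment. In the Fgfrl1-/- channel, the median brightness of its spots before any correction was 67.5, 45.0 and 39.8 on the 3 arrays, over a local background of 18, 30.5 and 26.8. In the wildtype channel it was 141, 172 and 154, over a background of 56.5, 48.8 and 48.0. By the scanner software's own criterion, the probe was well above background in the wildtype channel of 3 arrays but in the Fgfrl1-/- channel of array 1 only. The offset of 50 that was added after background correction pulls the ratio of such a probe towards 0. The ratios of the scanner software, which add no offset, gave a mean of -2.54 (adjusted p = 0.198), and the table of log2 ratios that the authors deposited gave -1.13 (adjusted p = 0.0373). The Bmp2 ratio was below 0 under all 17 alternative settings and passed the test in 11 of them. These 11 include Aquantile normalization between arrays, which leaves the ratios as they are, so that its pass was fixed in advance. They also include the slide block and the fit without array 1, where 4649 and 4172 of all probes passed as lower. The settings in which Bmp2 did not pass include the fits without array 2 (-0.91, adjusted p = 0.295) and without array 3 (-0.82, adjusted p = 0.471).

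Because Bmp2, Bmp4 and the second probe of Bmp7 were each printed 10 times per array, the spread between spots can be set beside the spread between arrays. For Bmp2, 29 of 29 spots without a flag were below 0, between -1.17 and -0.65. The SD between spots of an array was 0.099, and the SD between arrays was 0.10. For Bmp4, 16 of 28 spots were below 0. For Bmp7, 28 of 30 spots of the second probe were below 0, and here the SD between arrays, 0.21, was larger than that between spots, 0.12. Spots of an array share the same pair of pools and are not replicates of the genotype.

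**Figure D1:**
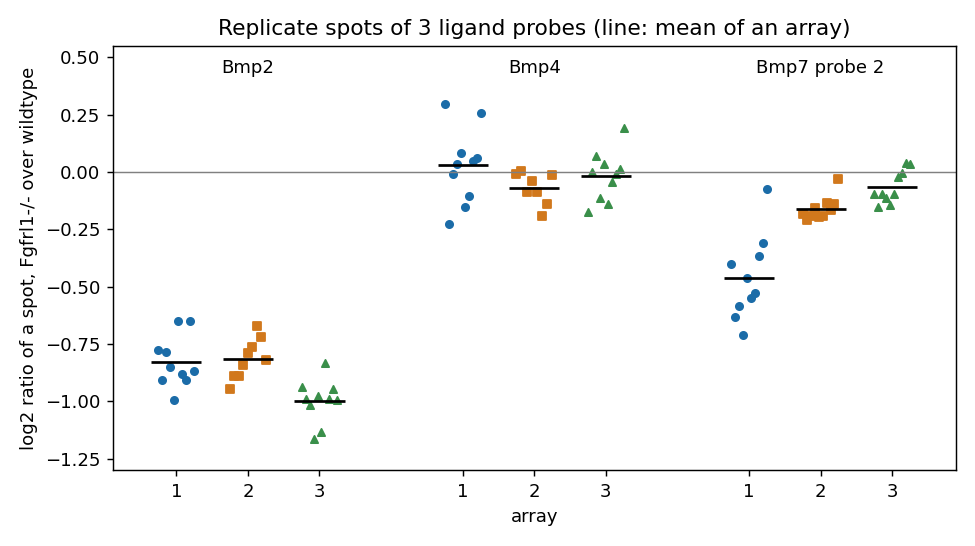
Log2 ratio of Fgfrl1-/- over wildtype (y axis) for each spot without a flag of the Bmp2, Bmp4 and second Bmp7 probe on arrays 1 to 3 (x axis), with the mean of each array as a line. All 29 Bmp2 spots lie between -1.17 and -0.65, the Bmp4 spots lie on both sides of 0, and the mean of the Bmp7 spots is lowest on array 1, with single spots that overlap those of arrays 2 and 3.

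The other ligands differed little between the pools. Bmp4, the ligand of the mesenchyme around the ureter, had log2 signals of 9.10, 8.85 and 8.93 in the wildtype pools and of 9.13, 8.78 and 8.91 in the Fgfrl1-/- pools. The 2 groups overlapped, and the log2 ratios of 0.029, -0.070 and -0.016 lay on both sides of 0. Their mean was -0.019 ± 0.049 (SD, n = 3) with a 95% interval of -0.19 to 0.15 (adjusted p = 0.941, limma). A change of Bmp4 as large as that of Bmp2 lies outside this interval.

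Bmp7, the ligand that sustains nephron progenitors, was measured by 2 probes that lie next to each other on chromosome 2. The log2 signals of probe 1 were 11.54, 12.88 and 12.98 in wildtype and 11.50, 12.81 and 12.91 in Fgfrl1-/- pools. Its ratios of -0.036, -0.072 and -0.071 were all slightly below 0 with a mean of -0.060 (95% interval -0.23 to 0.11, adjusted p = 0.757). Probe 2 gave -0.46, -0.16 and -0.065 with a mean of -0.23 ± 0.21 (SD, n = 3, adjusted p = 0.352, limma), in which array 1 was lower than the arrays of the other slide. On arrays 2 and 3 alone, the means of the 2 probes were -0.072 and -0.11.

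The signals of Bmp5 and Bmp6 were low. Bmp6 probe 1 gave log2 ratios of -0.34, -0.13 and -0.13 with a mean of -0.20 (adjusted p = 0.309), and probe 2 gave -0.046, 0.093 and 0.16 with a mean of 0.069 (adjusted p = 0.750), so that the probes of this gene differed in sign. For Bmp5, probe 1 was well above background in all pools and gave -0.10, -0.0080 and -0.11, with a mean of -0.071 (adjusted p = 0.712). Bmp5 probe 2 was well above background in 1 of 3 Fgfrl1-/- pools and in 0 of 3 wildtype pools, and probe 3, which is listed on the minus strand while the others are on the plus strand, in 0 pools of either kind. No fold is given for these 2 probes, apart from changes of sign between settings listed at the end. Of the 9 ligand probes, 6 were below 0 on all 3 arrays and 0 were above 0 on all 3, beside 19.2% and 19% of all probes. The median of the 9 was -0.084, and that of all probes was 0.0037. The 6 were the probe of Bmp2, probe 1 and the dim probe 2 of Bmp5, probe 1 of Bmp6 and both neighbouring probes of Bmp7.

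**Figure D2:**
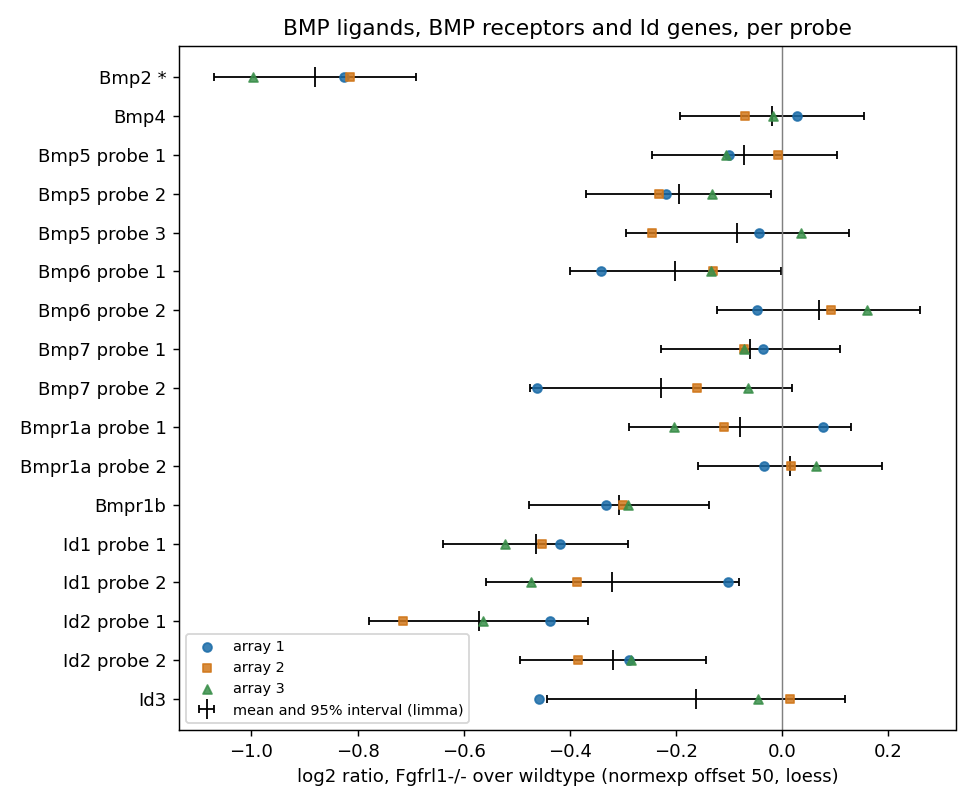
Log2 ratio of Fgfrl1-/- over wildtype (x axis) for each of the 17 member probes (y axis) on arrays 1, 2 and 3, with the mean and its 95% interval from limma. The asterisk marks Bmp2, the probe with an adjusted p of 0.0336, and the 5 Id probes have means between -0.57 and -0.16.

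Of the type I receptors, Bmpr1b gave closely similar values on the 3 arrays. Its log2 signal was 7.58, 8.07 and 8.14 in the wildtype pools and 7.25, 7.77 and 7.85 in the Fgfrl1-/- pools. The levels of the groups overlapped across arrays, while within each array the Fgfrl1-/- pool was the lower one. The log2 ratios of -0.33, -0.30 and -0.29 had a mean of -0.31 ± 0.022 (SD, n = 3), or 80.8% of wildtype, with a 95% interval of -0.48 to -0.14. With an adjusted p of 0.115 (limma) this did not pass the test, while the unadjusted p was 0.00486. Bmpr1a, the receptor with the broader expression, gave -0.079 by probe 1 (0.077, -0.11 and -0.20, adjusted p = 0.737) and 0.016 by probe 2 (-0.033, 0.016 and 0.064, adjusted p = 0.952). Neither probe kept one sign on all 3 arrays.

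Among the Id genes, whose products capture E proteins, Id2 and Id1 had the lowest ratios after Bmp2. Id2 probe 1 had log2 signals of 12.70, 13.85 and 13.97 in the wildtype pools and 12.26, 13.14 and 13.41 in the Fgfrl1-/- pools. Within every array the Fgfrl1-/- pool was lower, whereas across arrays the groups overlapped, with array 1 lowest in both channels. The log2 ratios were -0.44, -0.71 and -0.56, with a mean of -0.57 ± 0.14 (SD, n = 3), or 67.3% of wildtype (95% interval -0.78 to -0.37, adjusted p = 0.0632, limma). Probe 2 of Id2, at another position of the gene, gave -0.29, -0.39 and -0.28 with a mean of -0.32 (95% interval -0.49 to -0.14, adjusted p = 0.115).

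Id1 probe 1 had log2 signals of 12.04, 12.66 and 12.85 in wildtype and 11.62, 12.20 and 12.33 in Fgfrl1-/- pools. Its log2 ratios of -0.42, -0.45 and -0.52 differed less between arrays than those of Id2 and had a mean of -0.46 ± 0.053 (SD, n = 3), or 72.5% of wildtype (95% interval -0.64 to -0.29, adjusted p = 0.0661, limma). Probe 2, which shares 50 of its bases with probe 1 and is therefore no separate part of the transcript, gave -0.10, -0.39 and -0.47 with a mean of -0.32 (adjusted p = 0.194).

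Id3 was the only member Id gene that did not keep one sign on all 3 arrays. Its log2 signals were 13.04, 12.65 and 12.93 in wildtype and 12.58, 12.66 and 12.89 in Fgfrl1-/- pools. The ratio was -0.46 on array 1 but 0.016 and -0.045 on arrays 2 and 3, so that the mean of -0.16 ± 0.26 (SD, n = 3, adjusted p = 0.572, limma) rests on array 1. Without array 1 the mean was -0.015. The fourth Id gene, Id4, belongs to the list of other pathway genes and is named here for its family, with its values already seen. Its 2 probes gave -0.18 (0.67, -0.69 and -0.53, adjusted p = 0.819) and -0.47 (-0.059, -0.72 and -0.63, adjusted p = 0.199), with array 1 apart from arrays 2 and 3 in both.

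**Figure D3:**
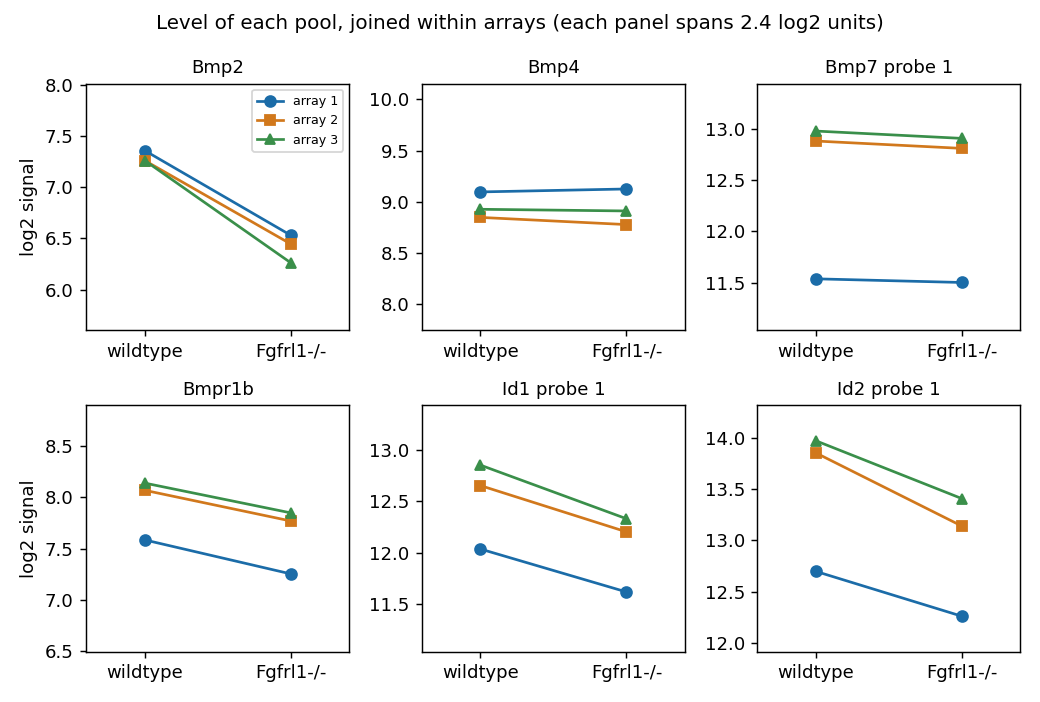
Log2 signal (y axis) of the wildtype and the Fgfrl1-/- pool (x axis) for 6 member probes, joined by a line within each of the 3 arrays. Each panel covers 2.4 log2 units around its own values, so slopes can be compared between panels but levels cannot, since probes differ in brightness. The lines of Bmp2, Bmpr1b, Id1 and Id2 fall on all 3 arrays, and those of Bmp4 are close to level.

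Counted over all members, 11 of 17 probes were below 0 on all 3 arrays and 0 were above 0 on all 3. Of all probes on the array, 19.2% were below 0 on all 3 arrays and 19% above 0. At an unadjusted p below 0.05, 8 of the 17 probes were lower and 0 were higher, beside 8.2% and 7.69% of all probes. The 8 were Bmp2, Bmpr1b, both probes of Id1 and of Id2, the first probe of Bmp6 and the dim second probe of Bmp5, so they stand for 6 genes and not for 8. The median over the 17 probes was -0.19. By role it was -0.084 for the ligands, -0.079 for the 3 receptor probes and -0.32 for the 5 Id probes. These counts describe the list and were not tested. On every array, both pools were well above background for 14 of the 17 probes, a group that does not hold Bmp2.

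The differences between Bmp2 and the other members were formed within each array, taking the brightest probe of each gene. All 9 other genes had a higher ratio than Bmp2 on 3 of 3 arrays, which in part restates that Bmp2 had the lowest mean. The mean log2 differences ran from Id2, with 0.39, 0.10 and 0.43 and a mean of 0.31 ± 0.18 (SD, n = 3), to Bmp4, with 0.85, 0.74 and 0.98 and a mean of 0.86 ± 0.12. With 3 arrays, the exact two-sided permutation test of signs cannot give a p below 0.25, which was the value for each of the 9 pairs before and after adjustment over them. These differences carry the dependence of the Bmp2 ratio on the background treatment, since Bmp2 was well above background in 1 of 3 Fgfrl1-/- pools. The order of the ratios after Bmp2 was Id2, Id1, Bmpr1b, and the 95% intervals of neighbours in this order overlapped, Bmp2 included. This order depends on the normalization. When each array was only centred on its median, Id2 at -1.0 and Id1 at -0.84 were no longer above Bmp2 at -0.83.

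Among the 17862 probes with a gene symbol that were well above background in all pools, the 5 with ratios closest to those of Bmp2 over the 3 arrays were Unc93a, Itga8, Pdgfa, Ankrd56 and Frzb. The root mean square of their differences from Bmp2 was between 0.072 and 0.10 on the log2 scale. Itga8, an integrin of the nephrogenic mesenchyme that is needed for ureteric outgrowth, gave -0.93, -0.85 and -0.91, Pdgfa, a growth factor, gave -0.81, -0.83 and -0.84, and Frzb, a secreted Wnt inhibitor, gave -0.96, -0.92 and -0.95. They were picked for this likeness over 3 arrays, so it is a description only. It holds for ratios with the offset of 50, since Bmp2 was at -1.73 with an offset of 0, and the search was not repeated there.

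The rest of the pathway was read from a list of 55 further names, of which 53 were on the array with 86 probes. Kcp was not found under this name, and Smad8 is an older name of Smad9, which was found. Of the 86 probes, 1 passed the test as lower and 2 as higher (0.398% and 0.289% over all probes). The median of the list was -0.0049, near that of all probes, with 16 probes below 0 and 21 above 0 on all 3 arrays.

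All 3 calls were secreted proteins that bind Bmps outside the cell. Bmper, a chordin-like protein with von Willebrand C domains that can promote or restrain Bmp signaling, was higher in the Fgfrl1-/- pools by both of its probes. Probe 1 gave 0.91, 0.72 and 0.83 with a mean of 0.82 (1.77-fold, adjusted p = 0.0346, limma) and probe 2 gave 0.85, 0.64 and 0.81 with a mean of 0.77 (1.70-fold, adjusted p = 0.0393). Both probes were well above background in all pools. Chrdl2, an antagonist of the chordin family, gave -0.65, -0.87 and -0.60 with a mean of -0.71 (adjusted p = 0.0432, limma). In the Fgfrl1-/- channel it was well above background on 2 of 3 arrays, and its size changed with the background treatment. The Chrdl2 mean was -1.53 at an offset of 0 and -2.08 with the scanner software's ratios, neither of which passed the test. None of the 3 calls was kept when dim probes were left out of the test, with adjusted p of 0.0522 and 0.0559 for Bmper and 0.0590 for Chrdl2. Nor was any of them kept without array 2 or without array 3, where the adjusted p lay between 0.295 and 0.471. The sign was the same in all settings in which each probe was tested.

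Close to the threshold, and named after their values were seen, were Gdf5, Fst and Msx2. Gdf5, a ligand related to the Bmps, gave 0.50, 0.58 and 0.51 (mean 0.53, adjusted p = 0.0527). Fst, the antagonist follistatin, gave -0.51, -0.49 and -0.71 (mean -0.57, adjusted p = 0.0591). Msx2, a homeobox gene that Bmps induce in many tissues, gave -0.78, -0.60 and -1.16 (mean -0.85, adjusted p = 0.0608, limma). It was well above background in 2 of 3 Fgfrl1-/- pools, and its mean was -3.03 with the scanner software's ratios.

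By role, 0 probes passed the test among the 9 of other ligands, the 18 of other receptors and co-receptors, the 16 of Smads and their regulators and the 6 of other targets. The medians of these groups were 0.0074, -0.0095, -0.060 and -0.16, and the 27 probes of extracellular modulators, which hold the 3 calls, had a median of 0.0096. At an unadjusted p below 0.05, the groups without a call held 5 probes lower and 5 higher of 49, beside 8.2% and 7.69% of all probes. For the partners of the Id proteins, 10 probes gave a median of 0.050 with 0 called and 0 at an unadjusted p below 0.05. The array's Tcf3 is an older name for Tcf7l1, which is no E protein, while the E2A gene is listed as Tcfe2a, so that 8 of these 10 probes belong to E proteins. Bmp2k, which the choice of members leaves out, is a kinase and no ligand, and its 3 probes on the plus strand disagreed, with means of -1.06 (adjusted p = 0.0409), 0.11 (0.670) and 0.15 (0.531). The mean wildtype log2 signals of these 3 Bmp2k probes were 8.40, 6.43 and 6.34, so that the last 2 were dim. The last was well above background in 2 of 3 wildtype pools. A further probe of that name, listed on the minus strand, gave -0.30 (0.120).

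**Figure D4:**
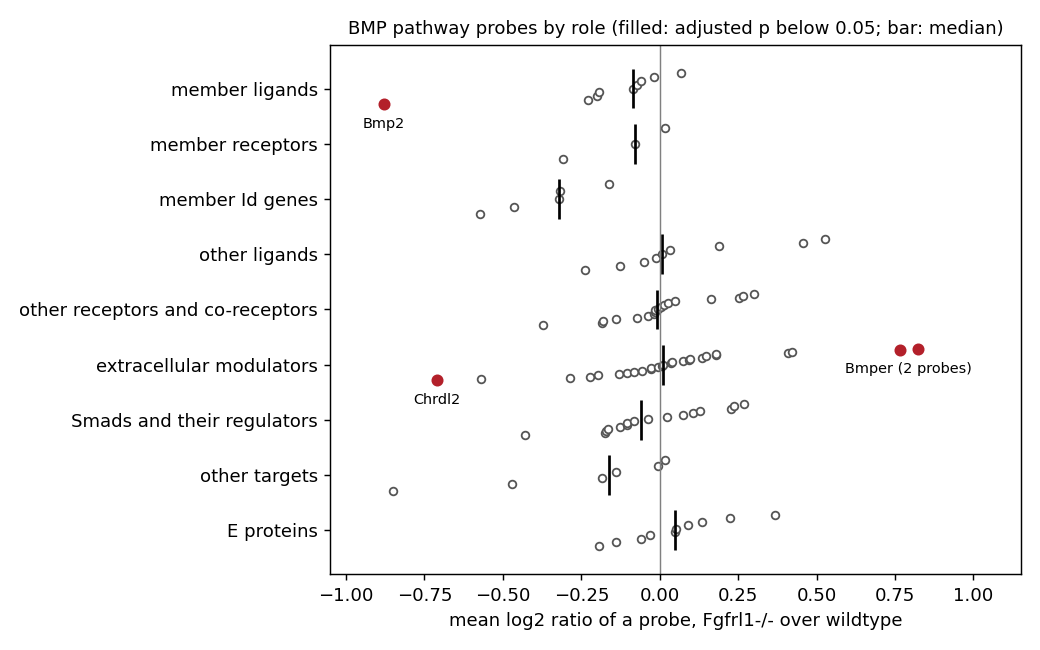
Mean log2 ratio of Fgfrl1-/- over wildtype (x axis) for the 17 member probes and the 86 other pathway probes, grouped by role (y axis). Filled points have an adjusted p below 0.05 (Bmp2, Chrdl2 and the 2 probes of Bmper), and bars mark the median of each group, which is lowest for the member Id genes at -0.32.

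The cell types of the rudiment were followed with short marker lists. The renal vesicle list (Wnt4, Lhx1, Fgf8, Jag1 and Pax8, 9 probes) held 4 of 9 probes called lower and had a median of -1.28. The mean log2 signal over its probes was between 8.46 and 8.72 in the wildtype pools and between 7.40 and 7.45 in the Fgfrl1-/- pools, without overlap. The largest of its falls was that of Wnt4 with a mean of -2.40, while Wnt4, Lhx1 and the first probes of Fgf8, Jag1 and Pax8 stayed well above background in all Fgfrl1-/- pools. In RNA of whole rudiments, fewer cells of a type and less RNA per cell cannot be told apart, and this holds for Bmp2 and the Id genes as well. The part of lost renal vesicle RNA in the Bmp2 difference was not tested.

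In the cap mesenchyme list, Cited1 was called lower (mean -0.78), the median of 9 probes was -0.26, and Six2 gave -0.046. The mean signal of this list was between 10.35 and 10.79 in the wildtype pools and between 10.05 and 10.55 in the Fgfrl1-/- pools. In the ureteric list of 6 probes, Wnt11 at the tips was called lower (mean -0.76) while the median was 0.15. Wnt9b (mean 0.73), Gata3 (0.43) and Calb1 (0.37) were above 0 on all 3 arrays and were not called. Hoxb7 (-0.12) was below 0 on all 3 arrays, and Ret was not well above background in any pool. Stroma had a median of 0.37 over 7 probes with 2 called higher, namely a probe of Foxd1 (mean 0.78) and one of Pdgfra (mean 1.02). Tcf21 of the same list was below 0 on all 3 arrays, with a mean of -0.48 (adjusted p = 0.127). All 8 macrophage probes, which stand for 4 genes, were higher on 3 of 3 arrays, beside 19% of all probes. Their median was 0.45, 0 of them passed the test, and 6 were well above background in all pools. The mean signal of the macrophage list was between 7.76 and 8.18 in the Fgfrl1-/- pools and between 7.41 and 7.65 in the wildtype pools. The endothelial and erythroid medians were 0.048 and -0.090 with 0 called. The part of these shifts in the ratios of the members was not tested.

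Promoter sequence in front of the members was taken from RefSeq on build GRCm38.p6 as the 250 bases before each listed start. Of the 10 genes, 7 had an entry, with 9 windows in all, while Bmp2, Bmp7 and Id1 had none. Windows were searched for 2 motifs that Smad proteins are known to bind, GGCGCC, which reads the same on both strands, and CAGAC with its reverse complement GTCTG. A match of one motif can overlap the other by a single base. GGCGCC was found in 2 of the 7 genes, Bmpr1a and Id2, and in 2 of 9 windows, beside 9.6% of all 32851 windows. CAGAC or GTCTG was found in 4 genes, Bmp5, Bmp6, Bmpr1b and Id3, and in 5 of 9 windows, beside 42.2% of all windows. The windows of Id2 and Id3, the member Id genes with an entry, are printed with motif matches in capitals. A difference between the ratios of Id2 and Id3 was not tested. On array 1 the log2 ratios were -0.46 for Id3 and -0.44 and -0.29 for the 2 probes of Id2.
Id2: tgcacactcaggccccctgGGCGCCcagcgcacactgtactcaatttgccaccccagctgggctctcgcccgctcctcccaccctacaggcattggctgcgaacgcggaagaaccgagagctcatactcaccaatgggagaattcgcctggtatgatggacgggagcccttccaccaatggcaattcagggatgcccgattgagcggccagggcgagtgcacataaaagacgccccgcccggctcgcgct
Id3: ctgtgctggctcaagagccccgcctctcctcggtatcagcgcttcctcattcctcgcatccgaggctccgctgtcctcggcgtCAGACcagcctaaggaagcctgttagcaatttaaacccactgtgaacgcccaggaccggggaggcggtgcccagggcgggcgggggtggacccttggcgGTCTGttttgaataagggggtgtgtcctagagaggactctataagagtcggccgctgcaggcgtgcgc
The Id2 window is chr12:25096093-25096342 on the minus strand, and GGCGCC begins 231 bases before the start. The Id3 window is chr4:136143572-136143821 on the plus strand, with CAGAC at 167 and GTCTG at 68 bases before the start. A match describes the letters of the window and is not evidence of binding.

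The choice of normalization within arrays moved the Id genes and Bmp7. When each array was centred on its median in place of loess, which also removes trends with brightness, the means were -0.84 and -0.65 for the probes of Id1, -1.0 and -0.67 for those of Id2 and -0.57 for Id3. None passed the test in that setting, and the lowest adjusted p was 0.0747 for Id2 probe 1. With the same centring the means were -0.44 and -0.58 for Bmp7 and -0.41 for the first probe of Bmpr1a, while Bmp2 was at -0.83 (adjusted p = 0.0957). Under all settings in which they were tested, the 5 Id probes stayed below 0, with the highest value, -0.015 for Id3, when array 1 was left out. Without array 1, both probes of Id1 and of Id2 and the probe of Bmpr1b passed the test next to Bmp2, in a fit of 2 arrays from 1 slide in which 4172 of all probes passed as lower and 3494 as higher.

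**Figure D5:**
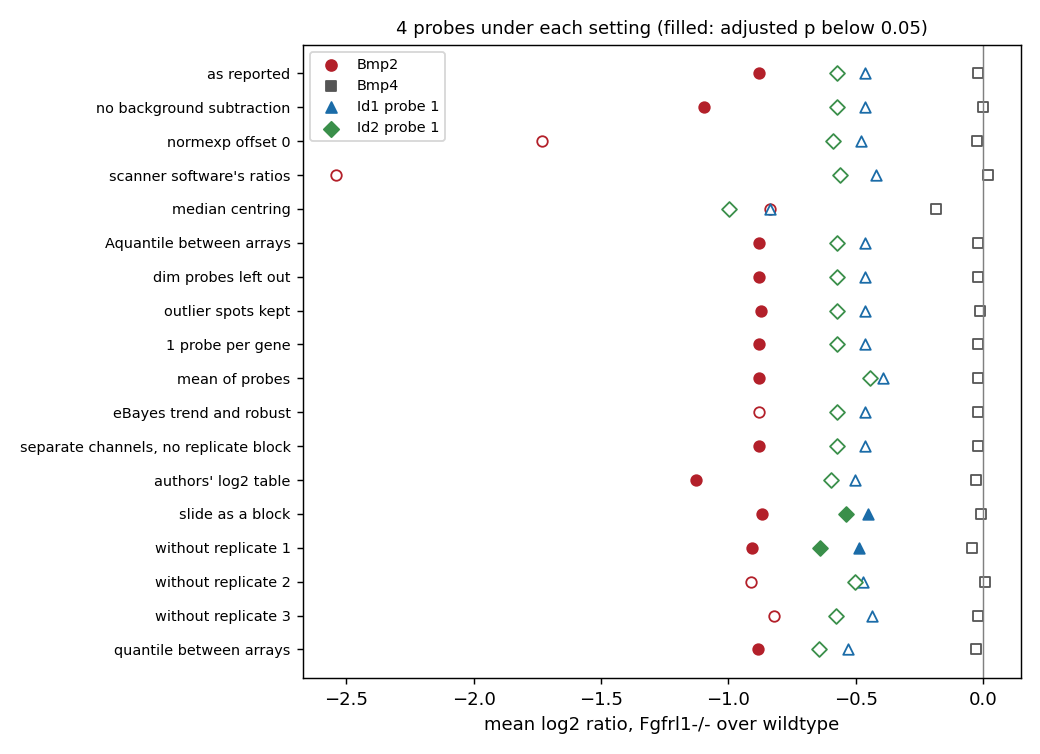
Mean log2 ratio of Fgfrl1-/- over wildtype (x axis) of the probes of Bmp2, Bmp4, Id1 (probe 1) and Id2 (probe 1) as reported and under each of 17 alternative settings (y axis). Filled symbols have an adjusted p below 0.05. Bmp2 lies between -2.54 and -0.82 and Bmp4 between -0.18 and 0.019, and the 2 Id probes are lowest with median centring.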

How the data were processed

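Agilent whole-genome mouse arrays compared 3 pairs of RNA pools in 2 colours, with 600 ng of RNA per labelling. For each array the authors deposited the Feature Extraction output (per the file headers 10.5.1.1 on the shared slide and 9.5.3.1 on the other, while the submitters' processing notes name version 10), which holds the median intensity of each spot and its background and the software's log10 ratio. A table of log2 ratios was deposited too, made in R with Bioconductor packages. Its steps are not given in the sources used here. Its values rise with the scanner's ratios turned to Fgfrl1-/- over wildtype, which gave its direction.

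Median intensities were corrected with normexp (offset 50) and normalized by loess with limma 3.58.1 in R 4.3.3. Control spots had no weight, spots with an outlier flag (107 to 138 per array) were dropped, and spots of a probe were averaged. The log2 ratio was fitted in limma (lmFit with an intercept, eBayes, two-sided) over 41174 probes, which pairs the pools of an array, with Benjamini-Hochberg adjustment. A probe was called at an adjusted p below 0.05. A probe counted as well above background on an array if at least a share of 0.5 of its spots were. No dye term could be fitted. The script was tested on simulated data, in which the arrays were drawn independently of each other. A shared slide and a dye effect were not simulated, so that test does not give the error rate of the calls made here. Gene names are those of the array's design, and older names were checked by accession in RefSeq tables of GRCm38.p6.

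The text names every member, each gene of the pathway list with a called probe, Fgfrl1, Bmp2k, the 5 probes most like Bmp2 and members of the marker lists. Genes outside this rule are marked. The members and all lists were chosen with earlier results of these data known. The labels call the pools separate RNA preparations, and the methods say that wildtype and mutant animals were littermates. The p-values do not rest on the spread between these preparations alone. The eBayes step draws the variance of each probe towards a value shared by all probes. For Bmpr1b, the SD between arrays was 0.022, and the standard error used in the test was 0.0675. Not every array was on its own slide, so the spread between arrays also holds any difference between slides. Alternatives changed the background correction, normalization, filters, probe summary, variance model, the way the pairing was modelled, the slide block and the arrays used. One, quantile normalization between arrays, was chosen after seeing the data, because Aquantile leaves the ratios as they are.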

Additional observations from a re-analysis of the deposited data

How the results depend on the processing

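Of 273 values of member probes under 17 alternatives, 243 kept their direction and their side of the threshold, 14 newly passed the test, 6 no longer passed and 10 changed sign. The 243, and the counts of settings below, include Aquantile normalization, under which no value could differ from the one reported. All 6 that no longer passed were of Bmp2, with -1.73 at an offset of 0 (adjusted p = 0.381), -2.54 with the scanner software's ratios (0.198), -0.83 with median centring (0.0957), -0.88 with a trended and robust eBayes fit (0.0822), -0.91 without array 2 (0.295) and -0.82 without array 3 (0.471). The sign changed for Bmp4 (0.019 with the scanner's ratios, and -0.043 to 0.0062 with 1 array left out, the latter without array 2), Bmp5 probe 2 (0.69, scanner), Bmp5 probe 3 (0.23, scanner, and 0.028, median centring), Bmp6 probe 2 (-0.051 without background subtraction, -0.20 with the scanner's ratios, -0.053 in the authors' table) and Bmpr1a probe 2 (-0.047, scanner, and -0.0085 to 0.040 with 1 array left out, the former without array 3). None of these probes had passed the test. The median of all probes was at most 0.042 from 0 in every setting. Outside the members, Chrdl2 and the first probe of Bmper passed in 7 of 17 settings, the second probe of Bmper in 5 of 15 and the first probe of Bmp2k in 8 of 17.

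Lower and higher calls among members, other pathway probes and all probes were, in that order, 1 and 0, 1 and 2, and 164 and 119. With an offset of 0 and with the scanner's ratios all 6 counts were 0. With median centring, 0 member and 0 other pathway probes were called, and 91 and 2 of all probes. With the trended and robust fit, 0 member and 0 pathway probes passed, and 6 and 0 of all probes. With dim probes left out (26248 probes), 0 pathway probes passed, and 46 and 14 of all probes. From the authors' values, no pathway probe passed, and 32 and 4 of all probes, and after quantile normalization between arrays 0 pathway probes, and 60 and 22 of all probes. Without background subtraction, 72 of all probes were called higher. When 1 array was left out, between 0 and 6 member probes were lower, between 0 and 20 pathway probes lower and between 0 and 11 higher, and between 0 and 4172 of all probes lower and between 0 and 3494 higher. The counts of 0 arose without array 2 and without array 3, which leave 1 array of each slide. With the slide as a block, which leaves 1 residual degree of freedom, 10 member probes were lower, 11 pathway probes lower and 16 higher, and 4649 and 5630 of all probes lower and higher.

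In a separate-channel fit, the pairing of the pools entered as 1 correlation of 0.604 between the channels of a spot, shared by all probes. There Bmp2 kept its mean of -0.88 and passed with an adjusted p of 0.0104 (limma), and 2 pathway probes were lower and 1 higher. This fit is therefore not an unpaired test. The numbers of the arrays name pairs of pools hybridized together, so that the paired ratio is the design of the study. The cause of the differences between settings was not tested.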
